A study of Rattus norvegicus with 8 samples.

Results

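Ddit4 and the genes around the kinase mTOR were examined in cultured rat thymocytes, the T cell precursors of the thymus, after 6 hours of dexamethasone, a synthetic glucocorticoid. The set holds 10 genes, Ddit4, Ddit4l, Sesn1, Sesn2, Tsc1, Tsc2, Frap1 (the older name of Mtor), Rheb, Rps6kb1 and Eif4ebp1. They were chosen by name among the 35561 names on the array, and 12 of its 41012 probes read them. The array itself names 9 of the 10 genes, and Sesn2 was found through RGD1566319, which the RefSeq gene table lists as its synonym. Both groups were thymocytes from adrenalectomized male Sprague-Dawley rats, which lack their own adrenal glucocorticoids, and the thymi of 3 rats were pooled for a preparation. The cultures ran for 6 hours, untreated (Control) or with dexamethasone at 100 nM (Dex), and each group has 4 arrays. The study speaks of 3 biological replicates, whereas 4 arrays per group were used here. Whether every array stands for a separate culture is thus not known, and the p-values measure the spread between these arrays.

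The kinase mTOR, in the complex mTORC1, drives protein synthesis and cell growth and holds back autophagy. It is switched on at the lysosome by the small GTPase Rheb. Tsc1 and Tsc2 form the TSC complex, which turns Rheb off, and DDIT4 (also called REDD1) acts as a brake by releasing the TSC complex. The sestrins are brakes that report stress and amino acid shortage to the same kinase. Ddit4 is known as a gene induced by hypoxia, by energy and amino acid stress and by glucocorticoids, and it was found early as a dexamethasone-induced gene of lymphoid cells.

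The probes below carry the results on the brakes. Each is the 60-base oligonucleotide printed on the array, and each is shown because it defines which transcript the values refer to. The probe of Ddit4 lies at chr20:27267323-27267382 on the minus strand and that of its paralog Ddit4l at chr3:51776849-51776908 on the minus strand, both in build rn3. The probe of Sesn1 matches the plus strand within chr20:45897640-45898795, so that its 60 bases are split over a span of 1156 bases. That of Sesn2 lies at chr5:152665930-152665989 on the plus strand.
Ddit4: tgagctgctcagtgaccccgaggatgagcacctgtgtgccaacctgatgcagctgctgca
Ddit4l: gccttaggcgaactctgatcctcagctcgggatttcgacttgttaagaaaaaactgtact
Sesn1: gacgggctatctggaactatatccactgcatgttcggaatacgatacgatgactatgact
Sesn2: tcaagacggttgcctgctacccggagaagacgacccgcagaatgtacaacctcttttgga
The longest run of bases shared by the Ddit4 and Ddit4l probes is 5 bases, and the sestrin probes share a run of 5 bases at most. The accession given for the Ddit4l probe, and those given for the Sesn1 and Sesn2 probes, did not match the RefSeq table, so these names rest on the array's own annotation or on the synonym.

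Rheb is read by 2 probes, which are not independent of each other. The capitals mark the 40 bases that both contain.
Rheb, brighter probe: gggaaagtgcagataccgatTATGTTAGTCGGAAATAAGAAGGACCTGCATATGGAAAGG
Rheb, other probe: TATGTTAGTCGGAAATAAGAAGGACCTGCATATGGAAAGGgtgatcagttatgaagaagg

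Ddit4, the brake upstream of the TSC complex, rose 13.3-fold. On the scale of quantile-normalized log2 signal, its values were 9.28, 9.49, 8.89 and 9.34 for Control 1 to 4 and 12.97, 12.86, 12.83 and 13.27 for Dex 1 to 4, the order in which array values are given throughout. Every Dex array was far above every Control array, and the spread within each group was small against the gap. The group means were 9.25 ± 0.26 and 12.98 ± 0.20 (SD, n = 4 each). The difference was 3.73 on the log2 scale with a standard error of 0.19 and a 95% interval of 3.30 to 4.16 (limma with Benjamini-Hochberg adjustment over all probes, adjusted p = 0.000153). Before any normalization the scanner intensity of the probe ran from 412.7 to 825.6 on the Control arrays and from 4273 to 12050 on the Dex arrays. By the size of its difference the probe ranked 12 of 41012, and 11 among those higher in Dex. The exact two-sided permutation test over the arrays gave p = 0.0286, the smallest p that 4 against 4 arrays allow.

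All 10 genes were well above background on all 8 arrays. Of the 10, 8 were higher and 2 lower in the Dex mean, and 3 passed the test, Ddit4, Sesn1 and Eif4ebp1, all of them higher in Dex. Of all 41012 probes, 0.778% passed in either direction, 0.563% as higher and 0.215% as lower. The same 3 genes were those whose groups did not overlap, which held for 9.1% of all probes. The median difference of the 10 genes was 0.38 on the log2 scale, against 0.00033 over all probes. Ddit4 was already known to respond in these arrays when the genes were chosen, so these counts are a description. In RNA from a whole culture, fewer cells of a type and less RNA per cell cannot be told apart.

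**Figure D1:**
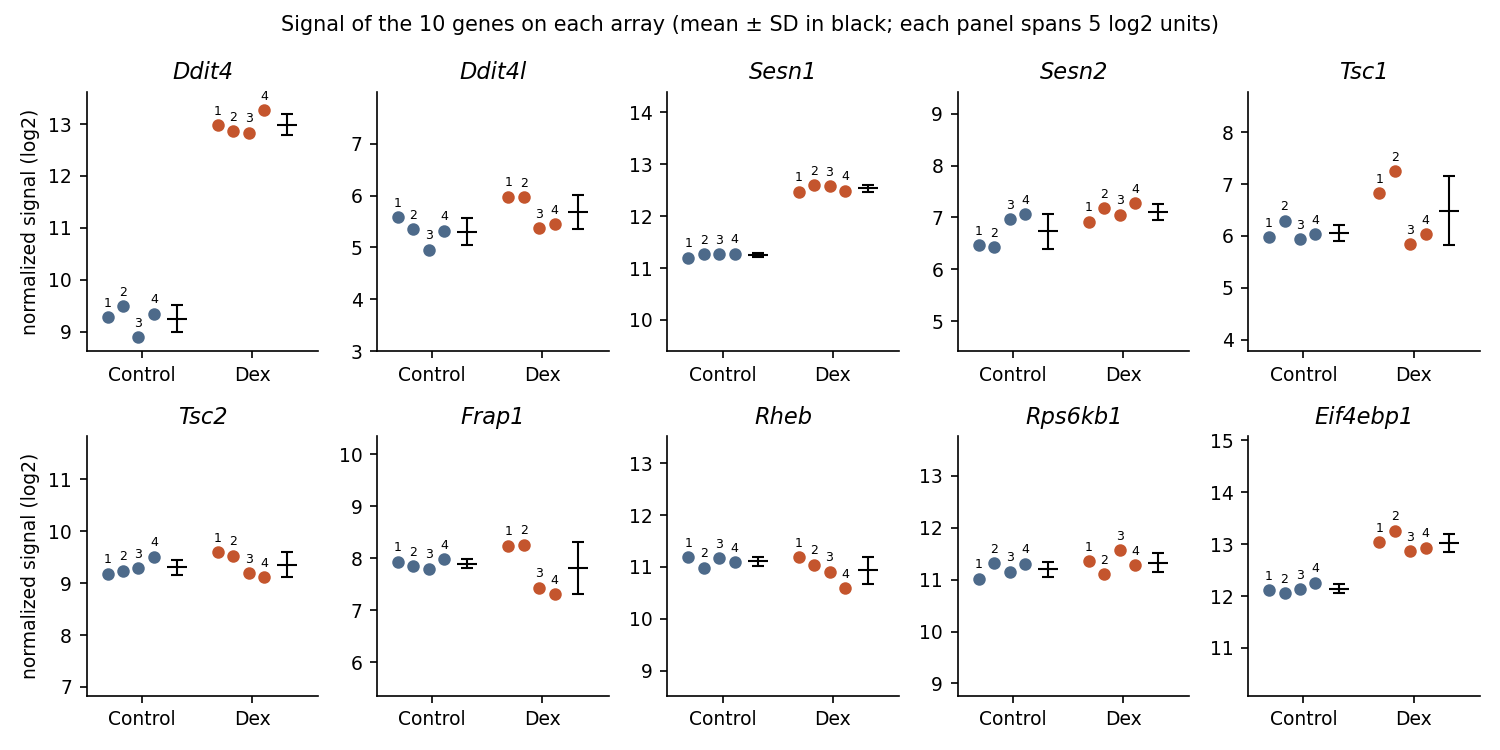
Quantile-normalized log2 signal (y axis) of the 10 genes on each Control (blue) and Dex (orange) array, numbered 1 to 4, with the mean and SD of each group in black. The groups are apart for Ddit4, Sesn1 and Eif4ebp1 and overlap for the other genes. Frap1 and Tsc1 show Dex arrays 1 and 2 above Dex arrays 3 and 4.

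Ddit4l, the paralog of Ddit4 with the same kind of action on mTOR, did not pass the test. Its log2 signal was 5.58, 5.35, 4.95 and 5.32 in Control and 5.97, 5.97, 5.37 and 5.44 in Dex, so the groups overlapped. The difference was 0.39 with a 95% interval of -0.12 to 0.89 (limma, adjusted p = 0.612). The interval lies wholly below that of Ddit4, but the difference between their responses was not tested. The Ddit4l probe was also far dimmer, with a Control mean of 5.30 against 9.25 for Ddit4. With normexp background correction the Ddit4l difference was 0.12.

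Sesn1, which encodes sestrin 1, rose 2.43-fold. Its log2 signal was 11.20, 11.27, 11.27 and 11.28 in Control and 12.47, 12.60, 12.58 and 12.49 in Dex. The 4 arrays of each group lay close together and the groups were well apart. The difference was 1.28 with a standard error of 0.13 (limma, adjusted p = 0.00543). The replicate numbers of the arrays were taken as pairs, and with them as a block the adjusted p was 0.077. Within same-numbered pairs the differences were 1.27, 1.33, 1.31 and 1.21. Scaling each array to its 75th percentile gave 1.30 and an adjusted p of 0.123.

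Sesn2, the sestrin that senses leucine and a target of the transcription factor ATF4, had 6.46, 6.42, 6.97 and 7.06 in Control and 6.91, 7.18, 7.05 and 7.28 in Dex. The groups overlapped through Control arrays 3 and 4. The difference was 0.38 with a 95% interval of -0.0909 to 0.84 (limma, adjusted p = 0.588).

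Sesn3, the remaining sestrin, is not among the 10 genes but is part of the wider pathway list described further on. It rose 1.97-fold by its brighter probe. That probe gave 7.41, 7.20, 7.03 and 7.42 in Control and 8.34, 8.34, 8.04 and 8.25 in Dex, with no overlap. Its difference was 0.98 on the log2 scale with a standard error of 0.16 (limma, adjusted p = 0.041), and the other probe gave 1.17 (adjusted p = 0.00816). By the brighter probe the call was lost when any array was left out, with the replicate block and with scaling to the 75th percentile. Of the 3 sestrin genes, Sesn1 and Sesn3 thus passed the test and Sesn2 did not, and the differences between their responses were not tested.

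Neither subunit of the TSC complex passed the test. Tsc1, the scaffold subunit, had 5.97, 6.29, 5.94 and 6.03 in Control and 6.83, 7.25, 5.84 and 6.04 in Dex. Dex arrays 1 and 2 were above all Control arrays, whereas Dex arrays 3 and 4 lay within or below their range. The difference was 0.43 with a 95% interval of -0.30 to 1.16 (limma, adjusted p = 0.713), and it was 0.18 without Dex 2 and 0.65 without Dex 3. Tsc2, the subunit that acts on Rheb, had 9.18, 9.24, 9.29 and 9.51 in Control and 9.60, 9.53, 9.19 and 9.11 in Dex. Its difference was 0.0537 with an interval of -0.35 to 0.45 (adjusted p = 0.942), and again Dex arrays 1 and 2 were the higher ones.

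Frap1, the kinase itself, is printed 10 times on each array. Its log2 signal was 7.94, 7.85, 7.79 and 7.99 in Control and 8.24, 8.26, 7.43 and 7.31 in Dex. Dex arrays 1 and 2 were above every Control array and Dex arrays 3 and 4 below every one, which left a difference of -0.0792 with an interval of -0.67 to 0.51 (limma, adjusted p = 0.942). Of all probes, 8.83% were split around the Control arrays in this way. The SD was 0.51 in Dex and 0.0865 in Control. Dex arrays 1 and 2 also had the fewest probes well above background, 26471 and 24908, against 33284 and 33402 on Dex arrays 3 and 4. Control 1 had 28665. Dex arrays 3 and 4 in turn had the lowest 75th percentile of intensity, 266.3 and 263.8, against 424.7 and 400.9 on Dex arrays 1 and 2. Which of these arrays deviate was not tested, and Dex arrays 3 and 4 were not left out together. Without Dex arrays 1 and 2 the difference was -0.52 for Frap1 (adjusted p = 0.0508), -0.12 for Tsc1 (adjusted p = 0.652) and -0.15 for Tsc2 (adjusted p = 0.539), which turns the direction for both TSC genes. Leaving out Dex array 3 or Dex array 4 alone made the Frap1 difference 0.047 or 0.0873. Ddit4, Sesn1 and Eif4ebp1 were also called without Dex arrays 1 and 2, at differences of 3.80, 1.28 and 0.76. In that fit 7.87% of all probes were called higher and 9.55% lower, so a call there says less than in the fit of all arrays. That setting was chosen after the data were seen.

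Rheb, the activator of the kinase, had 11.18, 10.99, 11.16 and 11.09 in Control and 11.19, 11.04, 10.91 and 10.59 in Dex by its brighter probe. Only Dex arrays 3 and 4 lay below the Control arrays. The difference was -0.17 with an interval of -0.56 to 0.22 (limma, adjusted p = 0.786), and the overlapping second probe gave -0.11. Without Dex 4 the difference was -0.0587.

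Of the substrates of the kinase, Eif4ebp1 passed the test and Rps6kb1 did not, and the difference between their responses was not tested. Eif4ebp1 encodes 4E-BP1, which holds back the cap-binding factor eIF4E until mTORC1 phosphorylates it, and it rose 1.85-fold. Its brighter probe, at chr16:69110748-69110807 of rn3 on the minus strand, gave 12.11, 12.05, 12.13 and 12.26 in Control and 13.04, 13.26, 12.86 and 12.93 in Dex. Every Dex array was above every Control array. The difference was 0.89 with a standard error of 0.15 (limma, adjusted p = 0.0479). The other probe, at chr16:69110947-69111006, gave 0.90 (adjusted p = 0.0484) and groups that did not overlap either. This call is near the threshold. It was lost when any array was left out (adjusted p from 0.0711 to 0.198), with the replicate block (0.194) and with scaling to the 75th percentile (0.516), while the difference stayed between 0.76 and 0.94.

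Rps6kb1, the S6 kinase, had 11.02, 11.32, 11.16 and 11.31 in Control and 11.36, 11.11, 11.56 and 11.28 in Dex. The groups overlapped widely, with a difference of 0.13 and an interval of -0.24 to 0.50 (limma, adjusted p = 0.84). It was 0.0485 without Dex 3, 0.0674 without Control 1 and 0.20 without Dex 2. The 7 genes that did not pass had differences from -0.17 to 0.43 on the log2 scale, and every one of their 95% intervals included 0.

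**Figure D2:**
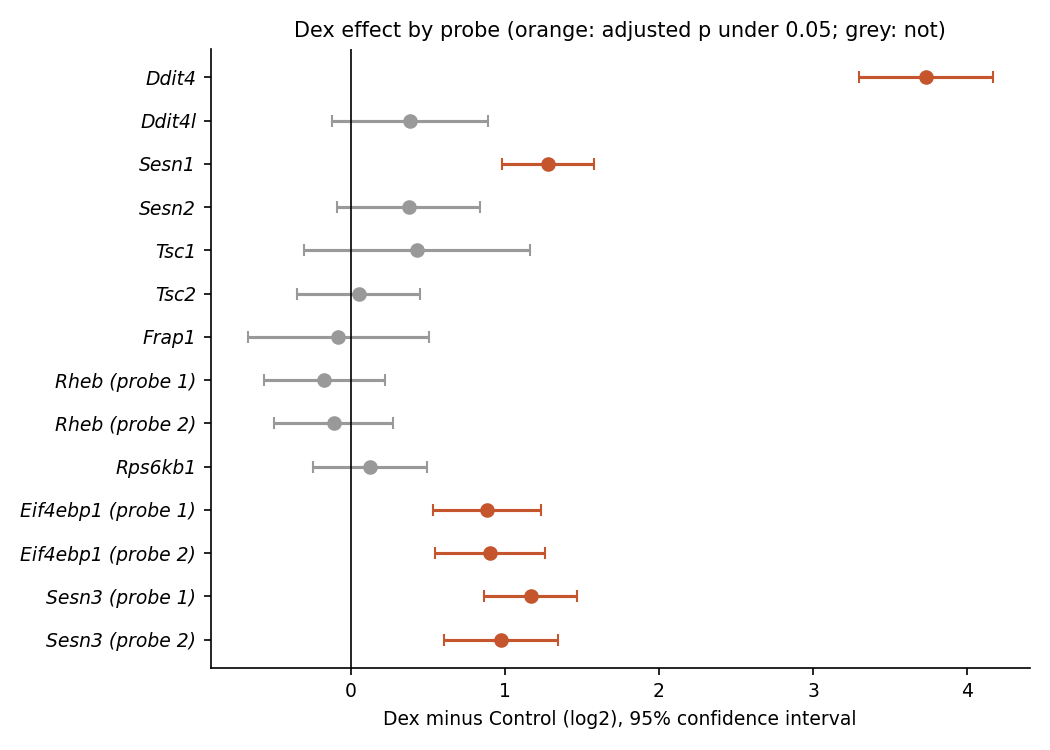
Difference between Dex and Control (x axis, log2) with its 95% confidence interval for the 12 probes of the 10 genes and both Sesn3 probes. Ddit4 lies at 3.73, the intervals of Sesn1, Sesn3 and Eif4ebp1 are above 0, and those of the other genes include 0.

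Slides could be separated from the treatment only in part. Slide 1 held Control 1 and Dex 3, while Control 2 to 4 shared slide 2 and Dex 1, 2 and 4 shared slide 3. Within slide 1, Dex 3 exceeded Control 1 by 3.55 for Ddit4, by 1.37 for Sesn1 and by 0.76 for Eif4ebp1. As a fixed block the slide leaves only this pair to carry the comparison, and none of the 10 genes was then called (limma, adjusted p = 0.135 for Ddit4, 0.633 for Sesn1 and 0.771 for Eif4ebp1).

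**Figure D3:**
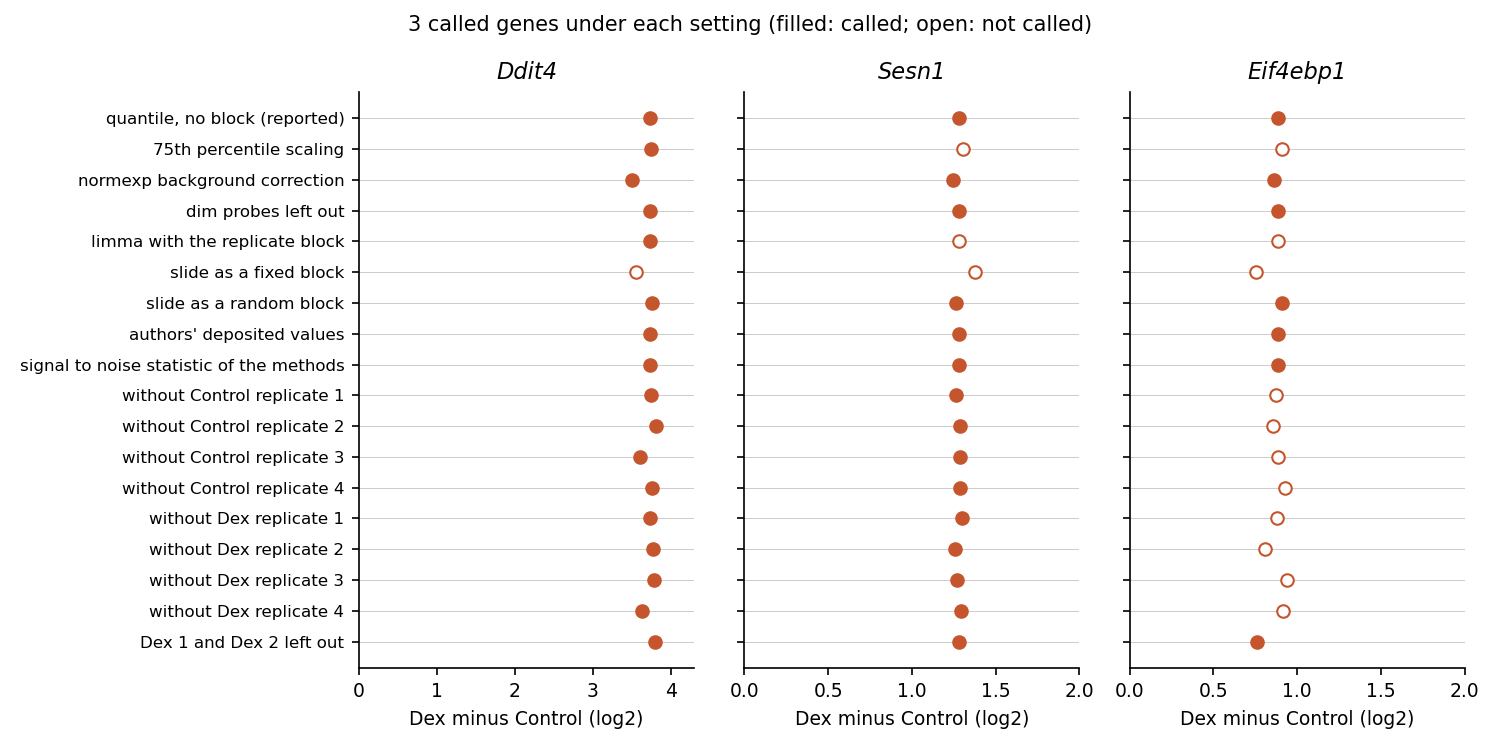
Difference between Dex and Control (x axis, log2) of Ddit4, Sesn1 and Eif4ebp1 under each way of processing the arrays (rows), filled where the gene was called and open where it was not. Ddit4 stays between 3.50 and 3.81 and is open only with the slide as a fixed block. Eif4ebp1 is open whenever any array alone is left out.

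Of 60 other genes of the wider mTOR pathway listed, 50 were on the array, 27 of them higher and 23 lower, and 1 passed the test, Sesn3, as higher in Dex, where 0.563% of all probes were called higher and 0.778% in either direction, so that the count is near that share. Their median difference was 0.0187 on the log2 scale. None of the 6 other complex subunits passed, nor any of the 17 genes of the amino acid branch (the Rag GTPases and their regulators), the 13 of the AMPK and Akt inputs or the 11 other substrates and effectors. Without adjustment, the counts with p under 0.05 in these 4 groups were 1, 2, 3 and 3, and by a signal to noise statistic, the group difference over the summed SDs, 0, 1, 2 and 2 genes were called. The statistic is modelled on the one the study names, but the permutations behind its p were built here, so its calls are not those of the study. In all, 10 of the 50 genes had p under 0.05, against 10.6% of all probes, and 6 were called by the signal to noise statistic, 3 higher and 3 lower, against 6.79% of all probes. Sesn3 was listed with 2 other partners of the TSC complex and Rheb, Tbc1d7 (0.0144) and Rhebl1 (0.30), neither of which passed.

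Lists of known targets of the regulators that can induce Ddit4 differed in how many of their genes passed. Among 11 glucocorticoid targets, 6 rose and none fell with a median of 1.41, where 0.563% of all probes were called higher. Without adjustment 8 had p under 0.05, against 10.6% of all probes, and of these Sgk1 was lower. The signal to noise statistic called 8, against 6.79% of all probes. Tsc22d3, which encodes the leucine zipper protein GILZ, rose 12.1-fold from 11.11 to 14.71 in log2 signal (limma, adjusted p = 0.000153). Dusp1, a phosphatase of MAP kinases, rose by 3.05 on the log2 scale, and Klf9, a transcription factor, by 1.98. Fkbp5, a co-chaperone of the glucocorticoid receptor, rose by 1.73, Errfi1, an inhibitor of EGF receptor signalling, by 1.56 and Nfkbia, the inhibitor of NF-kB, by 1.41. Sgk1, a kinase, was lower by mean (-1.32, adjusted p = 0.0503) and missed the threshold. Ddit4 differed by 3.73, next to 3.59 for Tsc22d3.

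Of 12 ATF4 targets, the amino acid and stress response genes, none passed the test, and none had p under 0.05 without adjustment either (limma), where 0.778% and 10.6% of all probes did. At those shares a list of this length would hold few such genes, so the count of 0 says little about it. Their median was 0.20. Ddit3, the transcription factor CHOP, had a difference of 0.51 (adjusted p = 0.718), Trib3 one of 0.20 and Asns, asparagine synthetase, one of -0.44. These values lean on Control 2, the lowest Control array for 11 of the 12 genes. Asns stood at 11.47, 9.48, 11.60 and 11.88 in Control and at 10.94, 10.82, 10.58 and 10.32 in Dex, so that Control 2 lay below every Dex array and the other Control arrays above every one. Ddit3 had 10.99, 9.66, 11.05 and 11.30 in Control and 11.60, 11.65, 11.05 and 10.75 in Dex. Without Control 2 the difference was -0.99 for Asns (limma, adjusted p = 0.243) and 0.15 for Ddit3 (adjusted p = 0.945), and the median was 0.0495. In that fit none of the 12 genes passed, where 113 of 41012 probes did. Without adjustment 2 of the genes had p under 0.05 (7.56% of all probes did then). With all arrays the signal to noise statistic called none of the 12 genes either, where 6.79% of all probes were called, so this count says little too.

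Of 11 p53 targets, 3 rose and 1 fell, against 0.563% and 0.215% of all probes. Without adjustment 6 had p under 0.05, against 10.6% of all probes, and of these Btg2 and Mdm2 were lower. The signal to noise statistic called 6, against 6.79% of all probes. Those that rose were Sesn1, which is on both lists, Tp53inp1, which takes part in cell death and autophagy (1.59, limma adjusted p = 0.0214), and Gadd45a, a stress response gene (0.83, adjusted p = 0.0484). Btg2, an antiproliferative gene, fell by 1.15 on the log2 scale (adjusted p = 0.0294). Cdkn1a, the cell cycle inhibitor p21, had a difference of 0.0558 (adjusted p = 0.955), Mdm2 one of -0.47 (adjusted p = 0.295) and Bbc3 one of 0.63 (adjusted p = 0.326). For Mdm2 and Bbc3 the groups did not overlap, which held for 9.1% of all probes. Without Sesn1 the list has 10 genes and a median of 0.15.

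Of 11 HIF-1 targets, 2 rose and none fell, with a median of 0.26. Over all probes 0.563% were called higher. Without adjustment 3 had p under 0.05, and 3 were called by the signal to noise statistic, against 10.6% and 6.79% of all probes. Egln3, an oxygen-sensing prolyl hydroxylase, rose by 1.03 (limma, adjusted p = 0.0446). Vegfa, the vascular growth factor, rose by 1.05 by its brighter probe (adjusted p = 0.0312), while its other probe gave -0.0519 (adjusted p = 0.97). The mean differences of the glycolytic targets Pgk1 (-0.00278) and Ldha (-0.0757) did not pass, and they averaged arrays that went opposite ways. Pgk1 had 12.34, 12.12, 12.02 and 11.99 in Control and 12.47, 12.35, 11.88 and 11.77 in Dex. Ldha had 11.27, 11.24, 11.01 and 10.87 in Control and 11.59, 11.29, 10.58 and 10.63 in Dex. Dex 1 and 2 lay above every Control array and Dex 3 and 4 below every one for these genes and for Slc2a1, Bnip3 and Pdk1, 5 of the 11 targets, against 8.83% of all probes. Without Dex 1 and 2 the median of the list was -0.11, and Vegfa (1.13) and Egln3 (0.84) were called as before, where 7.87% of all probes were called higher.

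**Figure D4:**
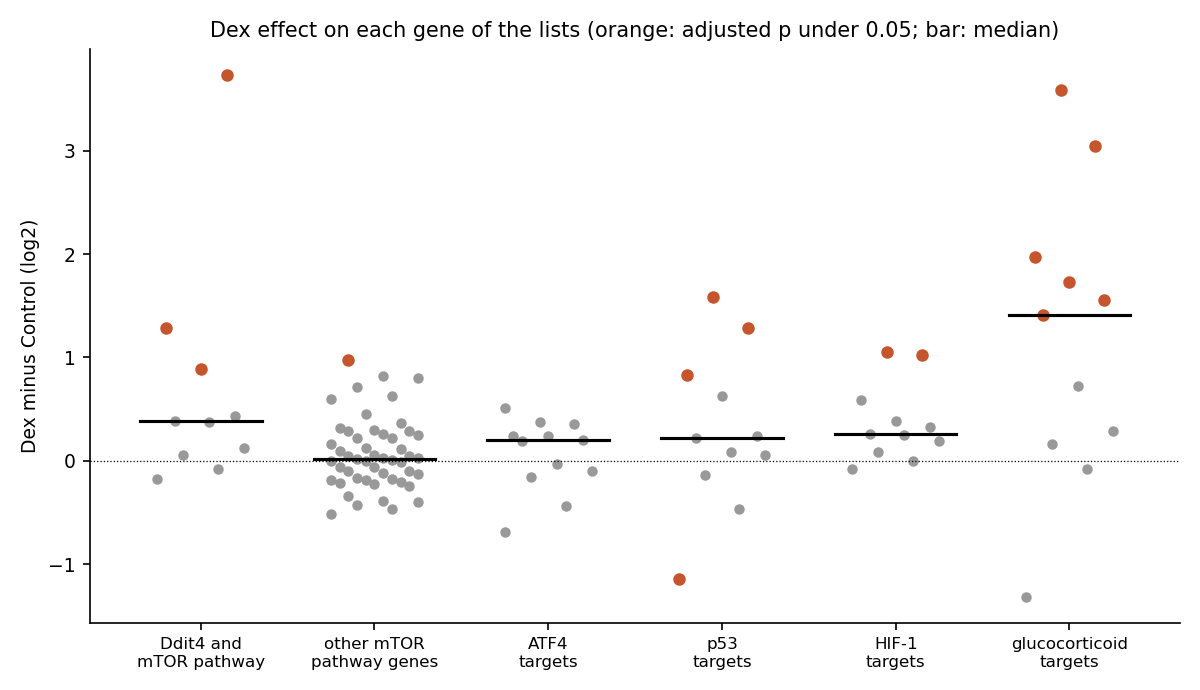
Difference between Dex and Control (y axis, log2) of each gene in the 10-gene set and in the lists of other mTOR pathway genes and of targets of ATF4, p53, HIF-1 and the glucocorticoid receptor, with called genes in orange and list medians as bars. The glucocorticoid targets have the highest median, 1.41. The ATF4 targets hold no called gene, which says little in a short list where 0.778% of all probes were called.

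The promoter of Ddit4 is shown because the gene had the largest difference of the 10. It comprises the 250 bases before the annotated start at chr20:28437038-28437287 of build GRCr8, minus strand, as RefSeq gives it, and 67.6% of its bases are G or C. The capitals mark the match to ACGTG, the core bound by HIF-1.
Ddit4 promoter: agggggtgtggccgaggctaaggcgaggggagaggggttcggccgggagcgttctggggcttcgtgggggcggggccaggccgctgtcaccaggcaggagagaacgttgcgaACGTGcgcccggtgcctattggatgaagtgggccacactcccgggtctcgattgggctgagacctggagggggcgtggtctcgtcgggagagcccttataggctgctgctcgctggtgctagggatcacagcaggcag

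The letters searched on both strands were AGAACA, the hexamer of the glucocorticoid receptor, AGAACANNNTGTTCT, its palindrome, which contains the hexamer on both strands, ACGTG and TGATG, a core bound by ATF4. Promoters of 9 of the 10 genes were matched in RefSeq by symbol, Eif4ebp1 being the exception. Ddit4 held ACGTG once, starting 138 bases before the start, Tsc2 held it once as well, and Rheb held it as overlapping matches on both strands. ACGTG stood in 16.6% of the 33469 rat promoters of the same length. AGAACA stood in 17.5% of them and, of the 9 genes, in Rps6kb1 alone. The palindrome stood in 4 promoters of 33469 and in none of the 9. TGATG stood in 35.2% and, of the 9, in Tsc2 and Rps6kb1. These matches are descriptions of letters within this window.

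The genes whose values followed Ddit4 most closely over the 8 arrays, among 10898 genes compared, were Usp2 (Pearson r = 0.993), RGD1566137 (0.992), Atg7 (0.992), Itpka (0.992) and Fkbp5 (0.992). All 8 arrays fall into the Control and Dex groups, so these values mostly restate the difference between the groups. After the group means were taken away, r with Ddit4 was 0.71 for Usp2, 0.25 for RGD1566137, 0.66 for Atg7, 0.42 for Itpka and -0.0185 for Fkbp5. Usp2 encodes a ubiquitin-specific protease and was higher by 1.68 on the log2 scale. Atg7, the activating enzyme of autophagosome formation, was higher by 0.66 without overlap of the groups but did not pass the test (limma, adjusted p = 0.0834). Within the set, r with Ddit4 was 0.989 for Sesn1 and 0.954 for Eif4ebp1, and from -0.52 for Rheb to 0.62 for Ddit4l in the rest.

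The labelled cell type was checked against markers. All 11 thymocyte markers measured were well above background on every array and none was called by limma, where 0.778% of all probes were, with 3 at an unadjusted p under 0.05 and 1 called by the signal to noise statistic, where 10.6% and 6.79% of all probes were. By the Dex mean 3 were higher and 8 lower, with a median of -0.13. Without Dex arrays 1 and 2 the median was -0.47. Ptcra was then called lower, where 9.55% of all probes were. The summed linear signal of the thymocyte markers, over the 10 with a value on every array, was 171886 to 213684 on the Control and 142546 to 191476 on the Dex arrays. Most of it came from Cd3g. None of 8 macrophage markers was called (sums of 4371 to 6086 and 4093 to 8517, mostly from Lyz2), none of 3 B cell markers (74 to 132 and 74 to 150) and neither of the 2 erythroid markers (248 to 1286 and 246 to 2282). At a share of 0.778% over all probes, counts of 0 in lists this short say little. Among these 3 lists, no marker was called by the signal to noise statistic, and 1 macrophage marker had p under 0.05 without adjustment. All 8 stromal and epithelial markers were higher in the Dex mean, with sums of 3191 to 5034 in Control and 4288 to 6297 in Dex. Most of each sum came from Krt18 (mean log2 signal of 11.89 in Control and 12.03 in Dex), so the sums say little about the rest. Of these markers 1 was called, where 0.563% of all probes were called higher, the adhesion gene Pecam1 (1.36, limma adjusted p = 0.0208). In that list of 8, 2 markers had p under 0.05 without adjustment and 2 were called by the signal to noise statistic, against the same shares of 10.6% and 6.79% of all probes. Pdgfrb, a pericyte and fibroblast receptor singled out after its values were seen, was higher by 1.72 without overlap of the groups and did not pass (adjusted p = 0.16), and it was well above background on 2 Control and 3 Dex arrays. Their part in the results on Ddit4, Sesn1 and Eif4ebp1 was not tested.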

How the data were processed

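RNA of Control and Dex thymocyte cultures was Cy3-labeled and hybridized to 1-color Agilent Whole Rat Genome arrays, 4 per group. The authors extracted spot intensity with Feature Extraction 9.5.3.1, which subtracts background, and deposited these intensity values without normalization between arrays. They also deposited log2 values, quantile normalized and summarized per probe by median polish, which were used as an alternative. Probe positions follow build rn3, per the file headers.

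Here control and outlier spots were left out of 43379 spots (16 values of 41012 probes missing), and log2 intensity was quantile normalized and summarized by median polish. Against the log2 table that the authors deposited, the median difference per array was at most 0.00158. limma 3.58.1 (R 4.3.3) compared Dex with Control without a block, and p-values were adjusted over all probes by Benjamini-Hochberg, with calls at 0.05. The brightest probe stands for a gene. The scanner flags put 24908 to 34472 probes of an array well above background, none were saturated, and 4 arrays per group limit the precision. The procedure was tested on simulated data.

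Control and Dex arrays share replicate numbers. Deviations of same-numbered arrays from their group means correlated at 0.397, 0.129, 0.55 and 0.184, all above 0.1, so that same-numbered arrays were treated as pairs in the blocked fit. Some unlike numbers correlated as highly, such as Control 1 with Dex 2 at 0.401.

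Alternatives were 75th percentile scaling, normexp correction with an offset of 50, leaving out probes well above background on fewer than 4 arrays, the replicate number or slide as a block, the deposited log2 values, a signal to noise statistic after the one the study names (nominal p of 0.01 and fold of 1.2, with p taken over probes from the 70 ways to assign the arrays, since the permutation scheme is not given in full), the other probe of a gene, and leaving out arrays. Named genes are all 10 of the set, called genes of the lists with some others for comparison, and the 5 most like Ddit4. The members and lists were chosen with earlier results of these data known.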

Additional observations from a re-analysis of the deposited data

Results flagged for a closer look

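Control 1 was the lowest Control array for Sesn1, at a log2 signal of 11.2, with the other Control arrays between 11.27 and 11.28, so that its gap took up most of the range of the group. Of 24 groups of 4 arrays checked, 1 stood out in this way, and chance alone marks about 1 in 20. Without Control 1 the Sesn1 difference was 1.26 (limma, adjusted p = 0.0315).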

How the results depend on the processing

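Ddit4 kept its direction in all 17 alternatives, at 3.50 to 3.81 on the log2 scale, and its call in 16 of them. The exception was the slide as a fixed block (3.55, limma adjusted p = 0.135), which rests on 1 array of each group. Sesn1 kept its call in 14 of 17 alternatives and Eif4ebp1 in 7 of 18. Of the 10 genes, 3 were called as reported, 1 with the replicate block or with 75th percentile scaling, 0 with the slide as a fixed block and 2 whenever an array was left out. The pathway list had 1 called gene as reported, 0 with 75th percentile scaling, the replicate block, the fixed slide or any array left out (0 to 0), 2 with the slide as a random block, 4 with normexp, 6 by the signal to noise statistic and 5 without Dex 1 and Dex 2. Over all probes 319 were called as reported, 166 with 75th percentile scaling, 81 with the replicate block (78 of them shared with the 319), 1 with the fixed slide, 1838 with the random slide, whose estimated correlation within slides was negative (-0.235), and 96 to 249 with an array left out, each single array other than Dex 3 moving the count by over 1.5 times. The count was 912 with normexp (497 higher, 415 lower), 2784 by the signal to noise statistic as built here (1471 higher, 1313 lower) and 7143 without Dex 1 and Dex 2 (3226 higher, 3917 lower), a setting added after the data were seen. These compare with 231 higher and 88 lower as reported. The cause was not tested. Directions turned in genes that did not pass. With the fixed slide Ddit4l was at -0.21 and Tsc1 at -0.13, Frap1 was at 0.00422 with 75th percentile scaling, 0.047 without Dex 3 and 0.0873 without Dex 4 (-0.228 to 0.0873 with an array left out), Tsc2 was at -0.0261 without Dex 1 and -0.00243 without Dex 2 (-0.0261 to 0.135), and without both Dex arrays Tsc1 was at -0.12 and Tsc2 at -0.15. Apart from Sesn1 and Eif4ebp1, the replicate block changed no call among the 10 genes.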

Other observations

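Flcn and Eif4ebp2 were singled out after their values were seen. Flcn encodes folliculin, which acts on the Rag GTPases of the amino acid branch. Its log2 signal was 13.10, 13.34, 13.72 and 13.65 in Control and 14.27, 14.21, 14.36 and 14.26 in Dex, and the groups did not overlap. The difference of 0.82 did not pass (limma, adjusted p = 0.109), but Flcn was called with normexp, with the slide as a random block (estimated correlation within slides of -0.235), by the signal to noise statistic and without Dex 1 and Dex 2. In the last of these fits 7.87% of all probes were called higher.

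Eif4ebp2 encodes 4E-BP2, the relative of the Eif4ebp1 product. Its brighter probe gave means of 10.28 in Control and 9.76 in Dex, a difference of -0.52 (limma, adjusted p = 0.35), while its other probe gave 0.30 (adjusted p = 0.751). The probes thus lay on opposite sides of 0. Neither passed in limma, and the brighter one was called lower by the signal to noise statistic.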
